A study of Homo sapiens with 6 samples.

Results

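Small nucleolar RNA (snoRNA) host genes make spliced RNAs whose introns carry snoRNAs. The 10 genes described here, GAS5, ZFAS1, SNHG1, SNHG3, SNHG5, SNHG6, SNHG7, SNHG8, SNHG12 and SNHG15, were chosen by name, with earlier results of these data known. They are non-coding hosts whose spliced RNA is known to decay in a translation-dependent way. Each has 1 row among the 55401 gene names of every library. RNA sequencing covered 6 libraries in 3 groups of 2, each named A and B in the labels. The first group was RMS13-R, a line with acquired resistance to MAL3-101 derived from RMS13, given 10 µM MAL3-101; the second was parental RMS13 with 10 µM MAL3-101; the third was parental RMS13 with the vehicle DMSO, all for 9 h. RMS13 is a human alveolar rhabdomyosarcoma cell line, a tumour line of the skeletal muscle lineage, and MAL3-101 is a small-molecule inhibitor of HSP70 chaperones. It is not stated whether RMS13-R is 1 clone, nor that A and B came from separate cultures, and the p-values speak only of the spread between libraries. No untreated RMS13-R library was used here, and for the resistant cells a standing difference of the line and a different reaction to the drug cannot be told apart.

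The snoRNAs cut from the introns of these genes guide chemical modification of ribosomal RNA, the box C/D kind guiding ribose methylation and the box H/ACA kind pseudouridylation. The exons that remain form a spliced RNA with short reading frames. When ribosomes translate such a frame and stop upstream of a splice junction, nonsense-mediated decay, the surveillance pathway for premature stops, can remove the RNA, and blocking translation is known to let GAS5 and related hosts accumulate. Many hosts, like ribosomal protein genes, begin transcription within a pyrimidine-rich stretch, the terminal oligopyrimidine start.

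Levels are in TPM, transcripts per 1000000, a unit that corrects for transcript length and keeps no read depth. The libraries listed 13918 to 14334 genes at 1 TPM or above. The lineage markers MYOD1, MYOG, DES, CHRNA1, CDH15 and PAX3 were at 1 TPM or more in some library, and MYF5 was listed at 0 in all; the 7 summed to between 2146 and 2170 TPM in RMS13-R with MAL3-101, between 2209 and 2211 TPM in RMS13 with MAL3-101, and between 2269 and 2408 TPM in RMS13 with DMSO. Of 5 epithelial markers only EPCAM reached 1 TPM, and the 5 summed to between 0.55 and 0.59 TPM in RMS13-R, 6.08 and 6.13 TPM in RMS13 with MAL3-101, and 3.70 and 3.87 TPM with DMSO, KRT5 being at 0 throughout. The 4 leukocyte markers, LYZ alone reaching 1 TPM, summed to between 0.85 and 0.89, 0.88 and 1.47, and 1.42 and 1.45 TPM in those groups, and the 2 endothelial markers with a row to between 0.10 and 0.11, 0.21 and 0.22, and 0.30 and 0.33 TPM. CHRNA1, a subunit of the muscle acetylcholine receptor, stood at 52.1 and 49.9 TPM in RMS13-R, 314.7 and 312.3 TPM in RMS13 with MAL3-101 and 285.2 and 337.2 TPM with DMSO. MYOD1 stood at 485.7 and 484.0, 713.9 and 718.8, and 816.0 and 801.9 TPM in those groups, MYOG at 669.5 and 687.7, 473.7 and 467.1, and 522.3 and 319.6 TPM, and EPCAM at 0.23 and 0.19, 6.0 and 5.70, and 3.55 and 3.50 TPM. The part of these differences in the results was not tested. Mitochondrial ribosomal RNA took 0.767% to 0.784% of TPM in RMS13-R, 1.92% to 1.97% in RMS13 with MAL3-101, and 0.533% to 0.565% with DMSO, and TPM recomputed without mitochondrial genes changed no call of the 10 genes. In bulk RNA, fewer cells of a kind and less RNA per cell cannot be told apart.

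The start regions are printed because the start is where hosts are known to share sequence. Promoters of 8 of the 10 genes were matched by symbol in a RefSeq table on build GRCh38.p14, a build other than the hg19 named for the expression files, and SNHG6 and SNHG15 are named only. The windows printed run from 45 bases before the annotated start to 35 bases from it on, and lie at chr20:49278597-49278676 (plus strand) for ZFAS1, chr6:85678699-85678778 (minus strand) for SNHG5, chr9:136728150-136728229 (minus strand) for SNHG7, chr4:118278717-118278796 (plus strand) for SNHG8, chr1:28581839-28581918 (minus strand) for SNHG12 and chr1:28505898-28505977 (plus strand) for SNHG3. Capitals mark the letters TATAA on the transcribed strand whose first base lies 40 to 20 bases before the start, and a run of 5 or more C or T that begins with C within 10 bases of the start.
ZFAS1: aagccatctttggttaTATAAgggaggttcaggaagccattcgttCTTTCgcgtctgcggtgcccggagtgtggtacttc
SNHG5: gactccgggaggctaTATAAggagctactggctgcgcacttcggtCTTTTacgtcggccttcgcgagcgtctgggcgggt
SNHG7: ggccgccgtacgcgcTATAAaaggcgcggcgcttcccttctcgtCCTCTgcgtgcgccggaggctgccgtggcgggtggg
SNHG8: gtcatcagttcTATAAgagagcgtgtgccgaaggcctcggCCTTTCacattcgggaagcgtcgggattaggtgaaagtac
SNHG12: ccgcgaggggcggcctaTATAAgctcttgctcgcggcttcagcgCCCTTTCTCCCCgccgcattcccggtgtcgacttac
SNHG3: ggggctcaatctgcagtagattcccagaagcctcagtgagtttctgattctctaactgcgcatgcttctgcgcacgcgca
Both elements were in the windows of the first 5 genes, with TATAA beginning 29 bases before the start in ZFAS1, 30 in SNHG5, 30 in SNHG7, 34 in SNHG8 and 28 in SNHG12. TATAA at that place was in 5 of the 8 host promoters and in 3.91% of 35116 promoters of the same length. The pyrimidine run was in 5 of 8 and in 31.4% of all promoters. Neither was found for SNHG3, whose window is shown for contrast because its level moved against the others, nor at the annotated starts of GAS5 and SNHG1. Over the 300 bases and both strands, TATAA was in 6 of 8 host promoters against 20.4% of all, and the E-box CACGTG in 1 of 8, that of SNHG7, against 7.26%. TGATGNAA, the core of the site bound by ATF4 with C/EBP factors, was in 0 of 8 against 3.62% of all promoters, and TGACGTCA, the cyclic AMP response element, in 0 of 8 against 1.85%. A match is a string of letters, and its absence says only that these letters are not in this window.

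Most annotated host transcripts had a splice junction well past their first reading frame, as did most of the other long non-coding genes tested. In GENCODE release 29, matched by name, the 10 genes had 82 spliced transcripts that are not classed as retained introns, with a median of 5 exons and 677 bases. A first reading frame, from the first ATG to its stop, was found in all 82, with a median of 35 codons. In 73 of the 82, 89.0%, a splice junction lay more than 50 bases downstream of that stop, the distance past which a junction is known to mark a stop as premature. The same was so for 77.9% of 2258 spliced transcripts of the other long non-coding genes tested, whose median was 3 exons. A first frame was found in 2227 of these 2258. All transcripts had it in GAS5 (10 of 10), SNHG6 (4 of 4) and SNHG12 (7 of 7), and 60.0% had it in SNHG8 (3 of 5). SNHG3 had 1 such transcript, of 3 exons and 2201 bases, with a frame of 23 codons and no junction past the distance (0 of 1).

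Parental RMS13 cells given MAL3-101 held more of 9 of the 10 host RNAs, and less of SNHG3, than cells given DMSO. The 10 together stood at 3596 ± 46.5 TPM in RMS13 with MAL3-101 and at 1824 ± 65.1 TPM in RMS13 with DMSO (SD, n = 2 each), which is 0.360% and 0.182% of all transcripts. Calls used limma's moderated test on log2(TPM + 1) with p-values adjusted by Benjamini-Hochberg and a threshold of 0.05. All 10 passed, where 40.8% of the 15148 genes tested did; 9 were higher, where 22.6% of genes were, and 1 was lower, where 18.2% were. The groups did not overlap for any of the 10, and 69.8% of all tested genes were apart in this way. The median log2 fold change was 1.05 over the 10 hosts and 0.02 over all tested genes. As the hosts were chosen with earlier results of these data known, these shares are a description. Of the 10, 6 were at least 2-fold higher by the ratio of group means, and 1, SNHG3, was at least 2-fold lower (ratio 0.495). The share of all tested genes past 2-fold was not counted in any comparison.

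**Figure D1:**
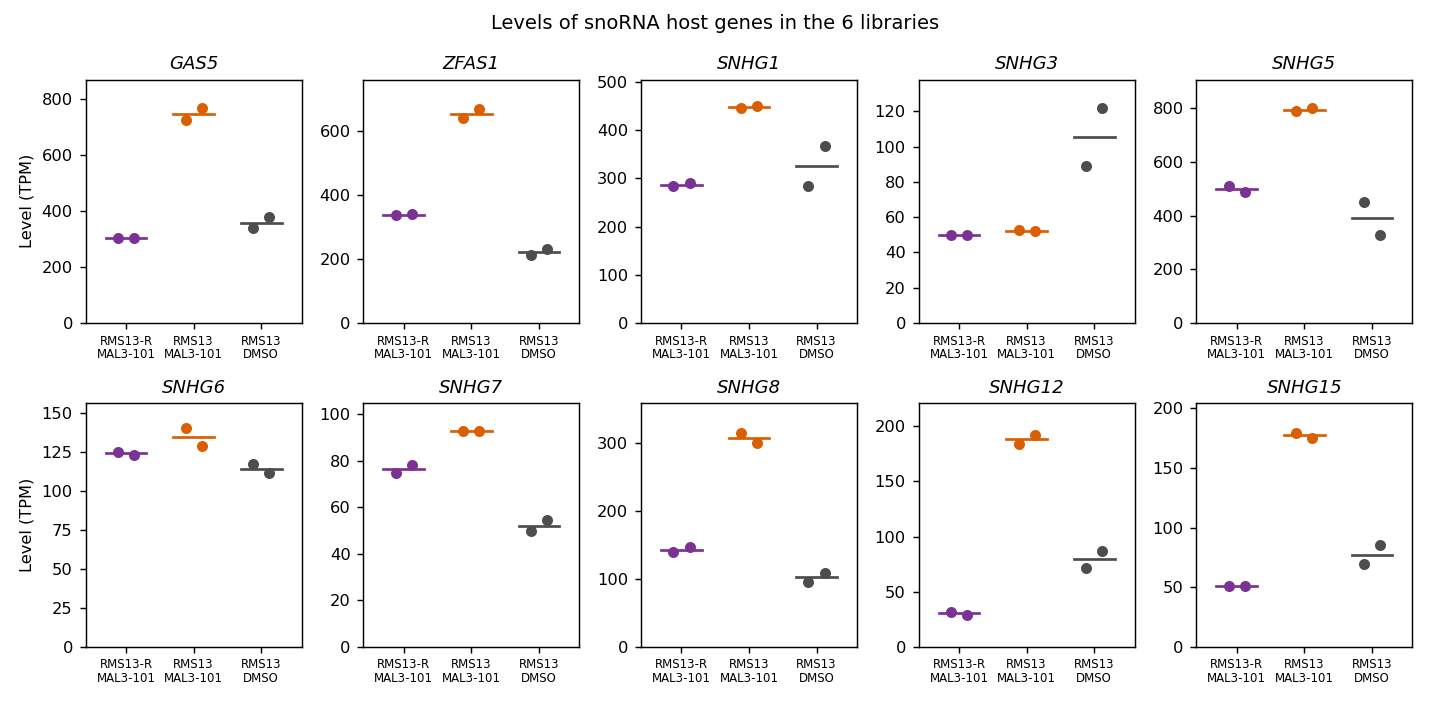
Levels in TPM (vertical axes, from 0) of the 10 host genes in each library, with RMS13-R with MAL3-101, RMS13 with MAL3-101 and RMS13 with DMSO from left to right; points are libraries A and B and bars their mean. RMS13 with MAL3-101 is the highest group for every gene but SNHG3, which is highest with DMSO at 89.2 and 121.9 TPM.

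ZFAS1, which lies head to head with ZNFX1 and hosts the SNORD12 family, stood at 640.1 and 669.2 TPM in libraries A and B of RMS13 with MAL3-101, against 211.5 and 229.9 TPM with DMSO. Its ratio of means was 2.97 and its log2 fold change 1.57 (SE 0.05, adjusted p = 4.89e-06). SNHG8, host of SNORA24, stood at 315.4 and 301.1 TPM with MAL3-101, against 96.1 and 108.1 TPM with DMSO. Its log2 change of 1.59 (SE 0.07, adjusted p = 1.22e-05) was the largest of the 10, ranking 116 among the 15148 genes from the highest, with ZFAS1 at rank 120. In both genes the lowest treated library lay far above the highest DMSO library.

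SNHG12, host of SNORA16A, SNORA44, SNORA61 and SNORD99, stood at 184.0 and 192.6 TPM with MAL3-101, against 71.8 and 87.1 TPM with DMSO, a log2 change of 1.24 (SE 0.09, adjusted p = 1.54e-04). SNHG15, host of SNORA9 and known as a short-lived RNA, stood at 179.2 and 175.5 TPM, against 69.0 and 85.4 TPM, a change of 1.2 (SE 0.09, adjusted p = 1.75e-04). GAS5, named for growth arrest and host of many box C/D snoRNAs, stood at 724.3 and 765.3 TPM, against 336.8 and 377.5 TPM, a change of 1.06 (SE 0.06, adjusted p = 5.07e-05). Each of these 3 genes was more than 2-fold higher, and libraries A and B differed less than the groups did.

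SNHG5, host of the SNORD50 pair, was the most abundant of the 10 in RMS13 with MAL3-101, with 789.0 and 800.8 TPM, against 451.9 and 327.0 TPM with DMSO. Its log2 fold change was 1.05 (SE 0.13, adjusted p = 0.00108), and the DMSO libraries spread more than the treated ones. SNHG7, which hosts box H/ACA snoRNAs, stood at 92.7 and 92.9 TPM, against 49.7 and 54.3 TPM, a change of 0.83 (SE 0.06, adjusted p = 1.28e-04). The rises of SNHG1 and SNHG6 were smaller. SNHG1, also known as the U22 host gene, stood at 445.3 and 450.4 TPM with MAL3-101, against 284.0 and 367.0 TPM with DMSO, a change of 0.47 (SE 0.11, adjusted p = 0.0112). SNHG6, host of SNORD87, stood at 140.7 and 129.1 TPM, against 117.5 and 111.5 TPM, a change of 0.23 (SE 0.06, adjusted p = 0.0162), the smallest of the 9.

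SNHG3, host of the SNORA73 (U17) snoRNAs, went the other way. It stood at 52.5 and 51.9 TPM in RMS13 with MAL3-101, against 89.2 and 121.9 TPM with DMSO, a log2 change of -0.98 (SE 0.13, adjusted p = 0.00124). The treated libraries nearly coincided and both lay below the DMSO libraries, which differed from each other. In the DMSO pair 5 of the 10 hosts differed by more than 1.2-fold between libraries, with B over A ratios of 0.724 to 1.37, and in each of the other pairs 0 of 10 did, with ratios of 0.921 to 1.05 in RMS13-R and 0.918 to 1.06 in RMS13 with MAL3-101.

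The calls of SNHG1 and SNHG6 were the least secure. SNHG1 had an adjusted p = 0.0562 with no filter on low levels, an adjusted p = 0.0668 without library A and an adjusted p = 0.0733 without library B of RMS13 with MAL3-101; its log2 fold change was 0.29 without DMSO library A. SNHG6 had a log2 change of 0.17 and an adjusted p = 0.127 without library A of RMS13 with MAL3-101.

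**Figure D2:**
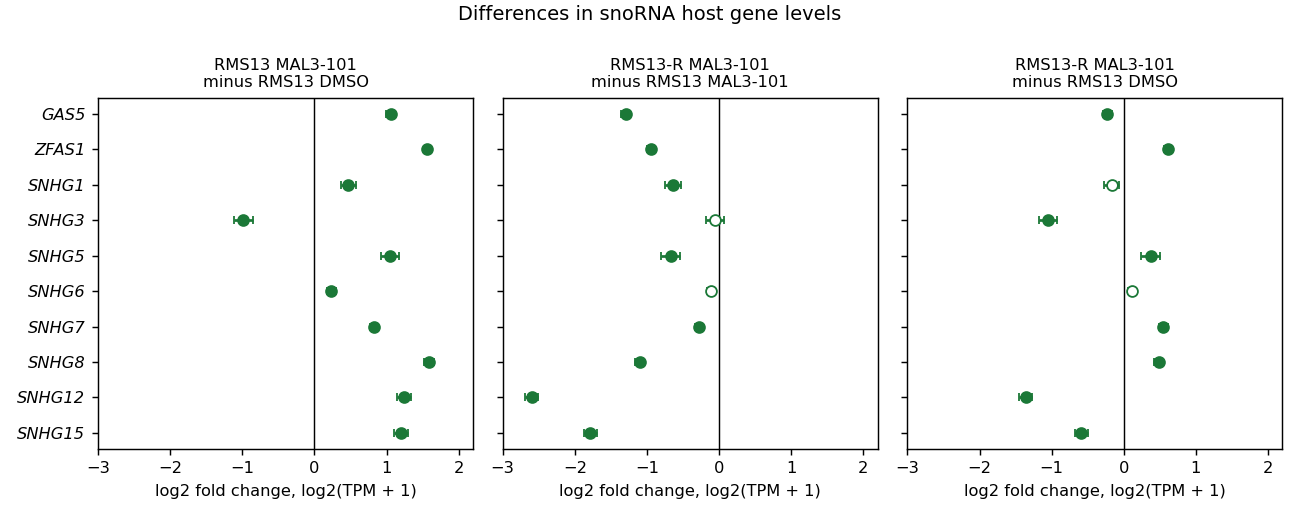
Log2 fold changes of the 10 host genes on the log2(TPM + 1) scale (horizontal axes) in the 3 comparisons, with moderated SE as bars; filled points have an adjusted p under 0.05 and open points do not. The first panel has SNHG3 alone below 0, and in the second SNHG12 lies lowest, at -2.60.

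With MAL3-101 in both lines, RMS13-R cells held less of 8 hosts than RMS13 cells. The 10 together stood at 1902 ± 5.95 TPM in RMS13-R and at 3596 ± 46.5 TPM in RMS13 (SD, n = 2 each), 0.190% and 0.360% of all transcripts. Of the 10, 8 passed limma's test, where 56.1% of all tested genes did; the 8 were lower, where 34.8% of all tested genes were, 0 were higher, where 21.3% were, and 2, SNHG3 and SNHG6, did not pass. No host overlapped between groups, and 83.4% of all tested genes were apart in this way. The median log2 fold change was -0.81 over the hosts and -0.10 over all tested genes. This comparison uses the same RMS13 libraries with MAL3-101 as the one before it, so the values of the 2 comparisons are not independent.

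SNHG12 differed most. It stood at 31.45 and 28.98 TPM in RMS13-R, against 184.0 and 192.6 TPM in RMS13 with MAL3-101, a ratio of 0.160 and a log2 change of -2.60 (SE 0.09, adjusted p = 3.03e-06). SNHG15 stood at 50.5 and 50.9 TPM, against 179.2 and 175.5 TPM, a change of -1.79 (SE 0.09, adjusted p = 1.31e-05). GAS5 stood at 303.5 and 303.5 TPM, against 724.3 and 765.3 TPM, a change of -1.29 (SE 0.06, adjusted p = 1.02e-05). These genes and SNHG8, at 139.2 and 146.7 TPM against 315.4 and 301.1 TPM, with a change of -1.10 (SE 0.07, adjusted p = 2.20e-05), were the 4 that were at least 2-fold lower by the ratio of means.

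ZFAS1 stood at 337.2 and 339.9 TPM in RMS13-R, against 640.1 and 669.2 TPM in RMS13 with MAL3-101, a change of -0.95 (SE 0.05, adjusted p = 1.71e-05). SNHG5 and SNHG1 had changes of -0.67 (SE 0.13, adjusted p = 0.00382) and -0.64 (SE 0.11, adjusted p = 0.00179). SNHG7 stood at 74.9 and 78.0 TPM, against 92.7 and 92.9 TPM, a change of -0.28 (SE 0.06, adjusted p = 0.00604). The last 2 hosts stayed nearest to their RMS13 levels: SNHG6 stood at 125.4 and 123.1 TPM, against 140.7 and 129.1 TPM, with -0.12 (SE 0.06, adjusted p = 0.123), and SNHG3 at 50.2 and 49.8 TPM, against 52.5 and 51.9 TPM, with -0.06 (SE 0.13, adjusted p = 0.704).

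Scaling mattered for the small differences here. Upper-quartile scaling shifted the median log2 fold change of all genes by 0.11, and the share of higher genes among those called was 38.0% as deposited, 49.3% with median-ratio and 50.7% with upper-quartile scaling. Under these scalings SNHG7 no longer passed, with adjusted p = 0.0698 and adjusted p = 0.0821, and it did not pass without RMS13-R library A (adjusted p = 0.0612); SNHG3 took the opposite sign in both, at 0.046 and 0.061, and SNHG6 in the second, at 0.0073, and neither passed. SNHG6 passed with only the compared libraries in the fit (adjusted p = 0.0465).

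Set against vehicle-treated parental cells, RMS13-R cells with MAL3-101 did not differ in a single direction. The hosts together stood at 1902 ± 5.95 TPM in RMS13-R and 1824 ± 65.1 TPM in RMS13 with DMSO (SD, n = 2 each). Of the 10, 8 passed limma's test, where 50.6% of all tested genes did; 4 were higher, where 20.9% of all tested genes were, 4 were lower, where 29.7% were, and 2 did not pass. Of the 10, 9 did not overlap between groups, as did 75.8% of all tested genes. The median log2 fold change was -0.03 over the hosts and -0.06 over all tested genes.

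The higher hosts were ZFAS1, SNHG7, SNHG8 and SNHG5. ZFAS1 stood at 337.2 and 339.9 TPM in RMS13-R, against 211.5 and 229.9 TPM in RMS13 with DMSO, a change of 0.62 (SE 0.05, adjusted p = 1.17e-04). SNHG7 and SNHG8 had changes of 0.55 (SE 0.06, adjusted p = 3.12e-04) and 0.48 (SE 0.07, adjusted p = 9.05e-04). In these 3 genes the RMS13-R level lay between those of RMS13 with MAL3-101 and with DMSO. SNHG5, at 509.6 and 487.5 TPM against 451.9 and 327.0 TPM, had 0.37 (SE 0.13, adjusted p = 0.0470).

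The lower hosts were SNHG12, SNHG3, SNHG15 and GAS5. SNHG12 stood at 31.45 and 28.98 TPM in RMS13-R, against 71.8 and 87.1 TPM with DMSO, a change of -1.36 (SE 0.09, adjusted p = 4.42e-05). SNHG3 stood at 50.2 and 49.8 TPM, against 89.2 and 121.9 TPM, a change of -1.05 (SE 0.13, adjusted p = 5.34e-04). SNHG15 had a change of -0.59 (SE 0.09, adjusted p = 0.00167) and GAS5 one of -0.23 (SE 0.06, adjusted p = 0.0176). SNHG12, SNHG15 and GAS5 were lower in RMS13-R with MAL3-101 than in either RMS13 group, and SNHG3 was low in both groups that received the drug. The comparisons share libraries, so these values are not independent. SNHG1 overlapped between groups, with 284.6 and 289.7 TPM against 284.0 and 367.0 TPM (-0.17, SE 0.11, adjusted p = 0.218). SNHG6 had 0.12 (SE 0.06, adjusted p = 0.128) and did not overlap.

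The calls of SNHG5 and GAS5 in this comparison hung on the setting. SNHG5 had an adjusted p = 0.152 with no filter, an adjusted p = 0.0767 with only the libraries compared, adjusted p = 0.190 and adjusted p = 0.130 without RMS13-R library A or B, adjusted p = 0.0844 and adjusted p = 0.0882 without library A or B of RMS13 with MAL3-101, and log2 fold changes of 0.61 and 0.14 without DMSO library A or B. GAS5 did not pass without RMS13-R library A (adjusted p = 0.0973), nor without B (adjusted p = 0.0956), with no filter (adjusted p = 0.0607), or with median-ratio (adjusted p = 0.119) or upper-quartile scaling (adjusted p = 0.0929), and had -0.15 without DMSO library B; SNHG1 had -0.35 (adjusted p = 1.12e-04) without DMSO library A, and SNHG6 passed with both scalings (adjusted p = 0.0233 and adjusted p = 0.0265) and without DMSO library A (adjusted p = 0.0477).

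Ordered by level in RMS13 with DMSO, the hosts ran from SNHG5 at 389.5 ± 88.3 TPM, GAS5 at 357.1 ± 28.8 TPM and SNHG1 at 325.5 ± 58.7 TPM (SD, n = 2 each), levels within one another's spread, through ZFAS1 at 220.7 ± 12.99 TPM, to SNHG7, the lowest, at 52.0 ± 3.22 TPM. SNHG6 at 114.5 ± 4.21, SNHG3 at 105.5 ± 23.1 and SNHG8 at 102.1 ± 8.50 TPM had overlapping SD ranges, as did SNHG12 at 79.4 ± 10.8 and SNHG15 at 77.2 ± 11.6 TPM. Still, both SNHG6 libraries (117.5 and 111.5 TPM) lay above both SNHG8 libraries (96.1 and 108.1 TPM). Across the 6 libraries, the mean standardised profile of the 10 correlated with GAS5 at r = 0.982, SNHG8 at 0.955 and SNHG15 at 0.945, and with SNHG3 at -0.417. The libraries form 3 pairs, and the profile includes the genes themselves, so these values are a description. Among 10905 genes outside the hosts, each averaging at least 5 TPM, the 5 with the most similar profile were KLF4 (r = 0.9996), ZFAND2A (0.9995), JMJD6 (0.999), OSGIN1 (0.999) and VIMP (0.999), over 6 libraries. KLF4, a zinc finger transcription factor, stood at 5.02 ± 0.170 TPM in RMS13-R, 17.7 ± 0.764 TPM in RMS13 with MAL3-101 and 5.12 ± 0.523 TPM with DMSO.

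The resident snoRNAs themselves were almost all listed at 0. Of 36 snoRNAs placed in these hosts from textbook knowledge, 24 have a row under that name, and 23 of the 24 were at 0 TPM in every library. SNORA73B, of SNHG3, was the exception, with 4.60 and 5.93 TPM in RMS13-R, 4.19 and 4.34 TPM in RMS13 with MAL3-101, and 6.49 and 8.24 TPM with DMSO. In all, 346 of 387 snoRNA rows were at 0 everywhere. The values above are thus of host RNAs, and levels of mature snoRNAs were not measured.

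In the RefSeq order on GRCh38.p14, 24 genes reported here lay next to or overlapped the 10 hosts, and 15 of them were expressed enough to be tested. With MAL3-101 in RMS13, 1 of the 15 was higher, 3 were lower and 11 did not pass, beside 9 higher and 1 lower among the hosts and 22.6% higher and 18.2% lower among all tested genes. Between RMS13-R and RMS13, both with the drug, 4 were higher, 6 lower and 5 did not pass (21.3% and 34.8% of all tested genes were higher and lower), and between RMS13-R and RMS13 with DMSO the counts were 5 higher, 5 lower and 5 not passed (20.9% and 29.7%). The 8 described next were picked with their values known. ZNFX1, the zinc finger gene head to head with ZFAS1, stood at 19.1 and 18.6 TPM in RMS13 with MAL3-101, against 18.8 and 19.1 TPM with DMSO (log2 fold change -0.01, SE 0.07, adjusted p = 0.948), while in RMS13-R it was higher than in RMS13 with MAL3-101 by 0.80 (SE 0.07, adjusted p = 8.30e-05), opposite to ZFAS1. PRSS12, a secreted protease next to SNHG8, did not pass with MAL3-101 in RMS13 (-0.21, SE 0.18, adjusted p = 0.382) and was lower in RMS13-R than in RMS13 with the drug, as SNHG8 was (-2.41, SE 0.18, adjusted p = 5.04e-05). TRNAU1AP, a selenocysteine tRNA-associated protein that overlaps SNHG12, did not pass with MAL3-101 in RMS13 (-0.14, SE 0.09, adjusted p = 0.258), nor between the lines (0.22, SE 0.09, adjusted p = 0.0751).

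The 4 adjacent genes that passed with MAL3-101 in RMS13 were SLC3A2, RCC1, NDST3 and CCM2. SLC3A2 moved the same way as SNHG1, while NDST3 and CCM2 moved opposite to SNHG8 and SNHG15. RCC1 moved the same way as SNHG3, which it overlaps, and opposite to SNHG12, which lies 39549 bases from it. SLC3A2, the heavy chain of amino acid transporters and a known ATF4 target next to SNHG1, stood at 535.1 and 537.2 TPM in RMS13 with MAL3-101, against 144.7 and 145.0 TPM with DMSO, a change of 1.88 (SE 0.04, adjusted p = 8.09e-07). RCC1, the chromatin-bound exchange factor of Ran, overlaps SNHG3 and stood at 85.9 and 86.7 TPM, against 114.4 and 128.0 TPM, a change of -0.48 (SE 0.06, adjusted p = 0.00120). NDST3, a heparan sulfate modifying enzyme beside SNHG8, stood at 1.52 and 1.61 TPM, against 2.84 and 2.36 TPM, a change of -0.49 (SE 0.15, adjusted p = 0.0415) that did not pass with a pseudocount of 0.1 TPM (adjusted p = 0.110), among other settings. CCM2, a scaffold protein of cerebral cavernous malformation beside SNHG15, stood at 26.8 and 26.6 TPM, against 36.2 and 41.2 TPM, a change of -0.52 (SE 0.08, adjusted p = 0.00212). WDR74, a ribosome assembly factor on the other side of SNHG1, did not pass (-0.06, SE 0.07, adjusted p = 0.523). Whether counting used strand is not given in the sources used here, so reads of genes that overlap may have been divided between them. Those reported here were SNHG3 and RCC1, SNHG12 and TRNAU1AP, GAS5 with GAS5-AS1 and ZBTB37, SNHG6 and MCMDC2, and SNHG7 and DIPK1B.

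**Figure D3:**
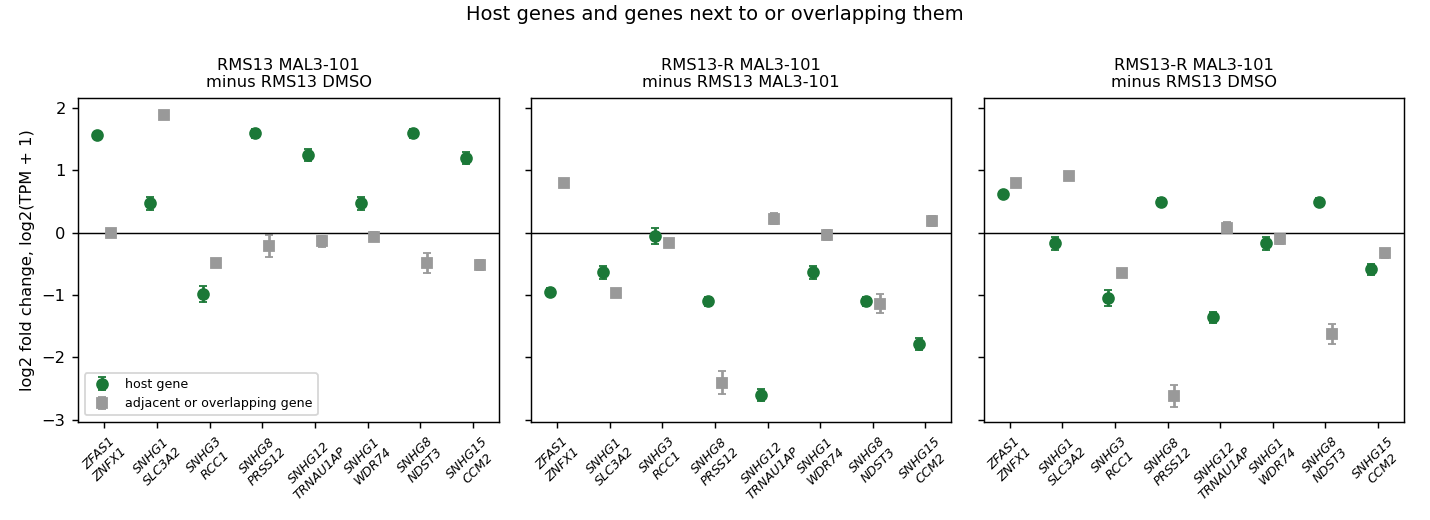
Log2 fold changes, log2(TPM + 1) scale (vertical axis), of host genes (circles) and of a gene beside or overlapping each (squares), 8 pairs in all, in the 3 comparisons, with moderated SE as bars. With MAL3-101 in RMS13, ZFAS1 stands at 1.57 and its neighbour ZNFX1 at -0.01, SNHG3 and RCC1 both lie below 0, and SNHG8 and SNHG15 lie above 0 with NDST3 and CCM2 below.

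Other non-coding hosts were divided. Of 15 listed, 9 have a row under the symbol used and all 9 were tested. With MAL3-101 in RMS13, 3 rose, 4 fell and 2 did not pass, where 22.6% of all tested genes rose and 18.2% fell. The median log2 fold change was -0.07, against 0.02 over all tested genes. EPB41L4A-AS1, host of SNORA13, stood at 52.2 and 57.6 TPM with MAL3-101, against 14.1 and 17.1 TPM with DMSO, a change of 1.76 (SE 0.10, adjusted p = 4.68e-05). SNHG17 stood at 227.3 and 224.1 TPM, against 65.1 and 77.7 TPM, a change of 1.65 (SE 0.08, adjusted p = 2.51e-05), and SNHG11 had 0.99 (SE 0.07, adjusted p = 1.08e-04). SNHG14, the long host of the imprinted SNORD115 and SNORD116 clusters, fell by 0.80 (SE 0.08, adjusted p = 5.70e-04). In RMS13-R against RMS13, both with MAL3-101, 1 of the 9 was higher, 6 were lower and 2 did not pass. Among all tested genes, 21.3% were higher and 34.8% lower. The median was -0.60 for the 9, against -0.10 over all tested genes. SNHG17 had -1.46 (SE 0.08, adjusted p = 1.61e-05) and EPB41L4A-AS1 -1.0 (SE 0.10, adjusted p = 1.76e-04). Against RMS13 with DMSO, 2 were higher, 4 lower and 3 did not pass, beside 20.9% higher and 29.7% lower among all tested genes. MEG8 had -1.04 (SE 0.09, adjusted p = 1.40e-04) and SNHG9 -1.03 (SE 0.10, adjusted p = 2.36e-04).

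**Figure D4:**
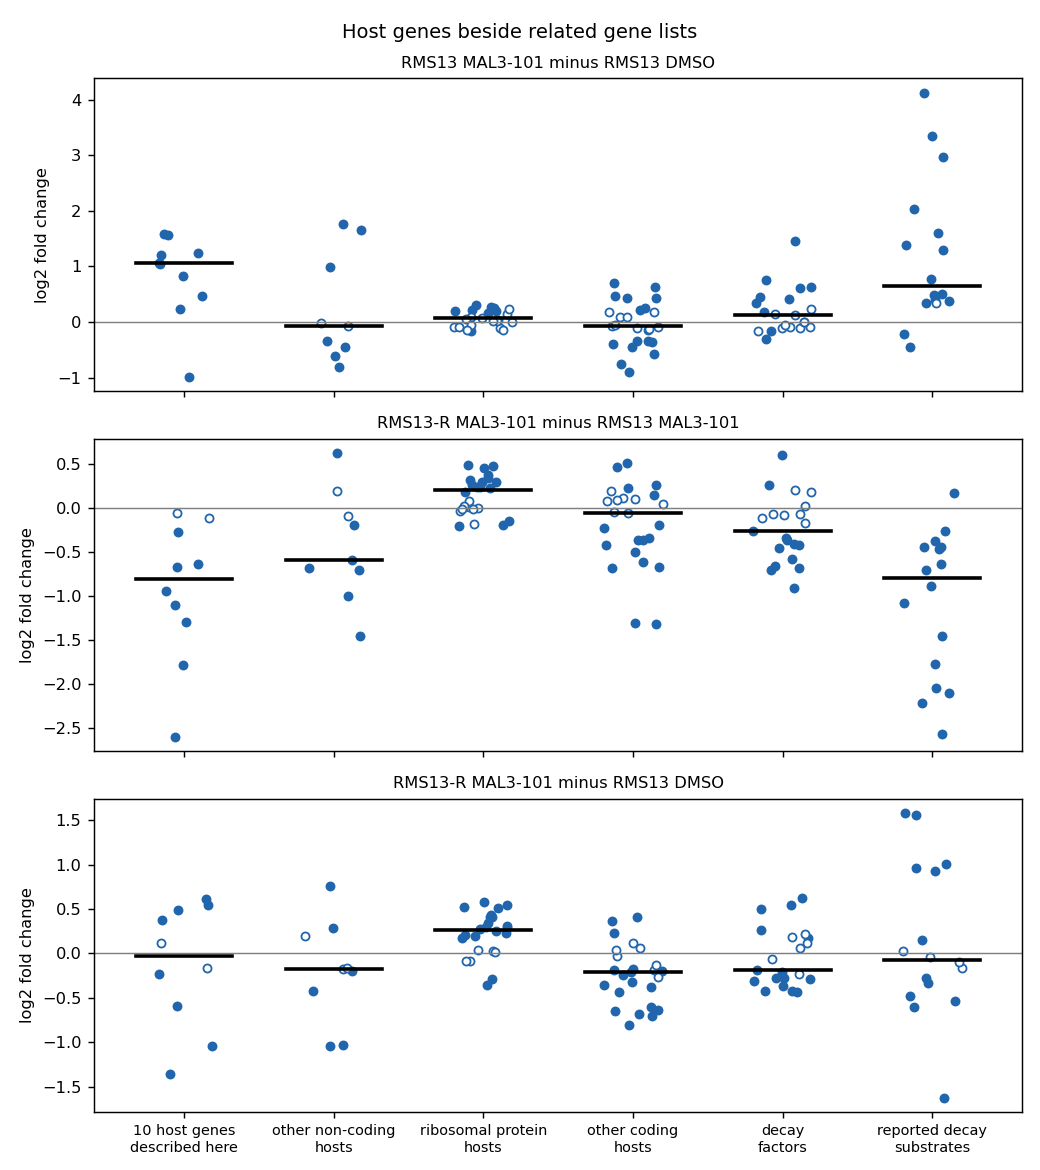
Log2 fold changes on the log2(TPM + 1) scale (vertical axes) of the 10 host genes and of 5 related gene lists (columns) in the 3 comparisons (rows); filled points have an adjusted p under 0.05, open points do not, bars are medians, and horizontal positions within a column are random. In the top panel the median is 1.05 for the 10 hosts, 0.64 for reported decay substrates and between -0.07 and 0.13 for the other lists.

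Of 24 ribosomal protein genes that host snoRNAs, 8 rose, 1 fell and 15 did not pass with MAL3-101 in RMS13, where 22.6% of all tested genes rose and 18.2% fell, with a median of 0.07; RPL5 had 0.31 (SE 0.06, adjusted p = 0.00891), a call lost without library A (adjusted p = 0.0630) or library B (adjusted p = 0.0697) of the treated pair. Under MAL3-101, 13 were higher in RMS13-R than in RMS13, 3 lower and 8 did not pass, where 21.3% of all tested genes were higher and 34.8% lower, with a median of 0.20, among them RPL27A with 0.48 (SE 0.05, adjusted p = 2.20e-04) and RPL17 with 0.47 (SE 0.04, adjusted p = 1.37e-04). Over RMS13 with DMSO, 17 were higher in RMS13-R, 2 lower and 5 did not pass, beside 20.9% higher and 29.7% lower among all tested genes, with a median of 0.26 and RPL37 at 0.58 (SE 0.05, adjusted p = 1.31e-04). Of 25 other coding hosts, 7 rose, 9 fell and 9 did not pass with MAL3-101 in RMS13 (median -0.07). NOP56, a core protein of box C/D particles that hosts snoRNAs itself, stood at 264.9 and 286.2 TPM with MAL3-101, against 476.1 and 552.2 TPM with DMSO, a change of -0.89 (SE 0.07, adjusted p = 2.40e-04). HSPA8, the constitutive HSP70 and host of SNORD14 copies, had -0.75 (SE 0.09, adjusted p = 8.58e-04), while HSPA9, the mitochondrial HSP70, rose by 0.63 (SE 0.05, adjusted p = 1.47e-04) and RABGGTB, a subunit of Rab geranylgeranyl transferase, by 0.70 (SE 0.10, adjusted p = 0.00195). With the drug in both lines, 5 were higher in RMS13-R, 12 lower and 8 did not pass (median -0.06), with HSPA9 at -1.32 (SE 0.05, adjusted p = 3.00e-06) and RABGGTB at -1.31 (SE 0.10, adjusted p = 5.68e-05). Over RMS13 with DMSO, 3 were higher in RMS13-R, 15 lower and 7 did not pass (median -0.21).

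Proteins of the snoRNA particles and their assembly factors were 18 genes in all. With MAL3-101 in RMS13, 4 rose, 7 fell and 7 did not pass (median -0.07), where 22.6% of all tested genes rose and 18.2% fell. NOP58, the partner of NOP56 in box C/D particles, rose by 0.55 (SE 0.05, adjusted p = 3.88e-04), and NOLC1, a nucleolar and Cajal body chaperone, fell by 0.46 (SE 0.04, adjusted p = 4.29e-04). Under MAL3-101, 1 was higher in RMS13-R than in RMS13, 10 were lower and 7 did not pass (median -0.24). Among all tested genes, 21.3% were higher and 34.8% lower. ZNHIT6, a box C/D assembly factor, had -0.96 (SE 0.09, adjusted p = 1.58e-04). Compared with DMSO-treated RMS13, RMS13-R had 2 higher, 8 lower and 8 that did not pass (median -0.20), beside 20.9% higher and 29.7% lower among all tested genes. NOLC1 had -1.02 (SE 0.04, adjusted p = 9.18e-06) and DKC1, the pseudouridine synthase of box H/ACA particles, -0.71 (SE 0.08, adjusted p = 3.26e-04).

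Of 21 genes of nonsense-mediated decay and of the decapping and exonuclease steps after it, 8 rose, 2 fell and 11 did not pass with MAL3-101 in RMS13 (median 0.13). Over all tested genes, 22.6% rose and 18.2% fell. Thus 10 of 21 changed, where 40.8% of all tested genes did. XRN1, the cytoplasmic exonuclease that digests decapped RNA, stood at 106.9 and 102.6 TPM with MAL3-101, against 44.3 and 32.1 TPM with DMSO, a change of 1.45 (SE 0.13, adjusted p = 3.37e-04). DCP1A, a decapping cofactor, rose by 0.76 (SE 0.11, adjusted p = 0.00206) and SMG1, the kinase of the central helicase UPF1, by 0.62 (SE 0.07, adjusted p = 6.12e-04). The pair that fell, named after their values were seen, are of the exon junction complex: EIF4A3 had -0.30 (SE 0.04, adjusted p = 0.00207), and RBM8A had -0.17 (SE 0.04, adjusted p = 0.0197), which did not pass with only the libraries compared (adjusted p = 0.0573). With the drug in both lines, 2 were higher in RMS13-R, 11 lower and 8 did not pass (median -0.27), beside 21.3% higher and 34.8% lower among all tested genes. Thus 13 of 21 changed against 56.1% of all tested genes. XRN1 had -0.91 (SE 0.13, adjusted p = 9.66e-04) and UPF3A -0.71 (SE 0.09, adjusted p = 6.17e-04). Over RMS13 with DMSO, 5 were higher in RMS13-R, 10 lower and 6 did not pass (median -0.19), beside 20.9% higher and 29.7% lower among all tested genes. Thus 15 of 21 changed against 50.6% of all tested genes. MAGOHB, of the exon junction complex, had 0.62 (SE 0.09, adjusted p = 9.60e-04) and SMG5, a decay adaptor, 0.50 (SE 0.05, adjusted p = 3.13e-04).

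Reported mRNA substrates of the same pathway outside the hosts numbered 16. Of these, 13 rose, 2 fell and 1 did not pass with MAL3-101 in RMS13 (median 0.64), where 22.6% of all tested genes rose and 18.2% fell. DDIT3, ASNS, ATF3 and CARS led with 4.12 (SE 0.05, adjusted p = 1.18e-07), 3.35 (SE 0.19, adjusted p = 4.87e-05), 2.97 (SE 0.06, adjusted p = 7.75e-07) and 2.04 (SE 0.07, adjusted p = 6.43e-06). These 4 genes are also known targets of ATF4, the transcription factor of the integrated stress response, and the list was chosen with earlier results known. Under MAL3-101, 1 was higher in RMS13-R than in RMS13, 15 lower and 0 did not pass (median -0.80). Among all tested genes, 21.3% were higher and 34.8% lower. GADD45A, a growth arrest gene, had -2.21 (SE 0.05, adjusted p = 1.10e-06) and UPP1, uridine phosphorylase, -2.10 (SE 0.12, adjusted p = 1.66e-05). Compared with DMSO-treated RMS13, RMS13-R had 6 higher, 6 lower and 4 that did not pass (median -0.07), beside 20.9% higher and 29.7% lower among all tested genes. ATF4 had 1.01 (SE 0.04, adjusted p = 8.59e-06) and UPP1 -1.62 (SE 0.12, adjusted p = 5.39e-05). RNA half-lives were not measured, so a change in decay and a change in synthesis of the hosts cannot be told apart.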

How the data were processed

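RNA from 6 libraries was read as paired ends after a TruSeq preparation of column-purified total RNA, per the labels' protocols. The authors deposited TPM per gene name, 1 file per library; the submitters' processing notes name RSEM, DESeq and hg19, and the sources used here do not give versions, aligner, annotation or strand use. Depth is unknown, so no counting interval is given. Groups came from titles and descriptions. A gene entered the fit if some group averaged at least 1 TPM (15148 genes). It was fitted with limma 3.58.1 in R 4.3.3 on log2(TPM + 1), a scale that understates changes of low genes, using all 6 libraries and a variance trend (3 residual and 4.17 prior degrees of freedom), with Benjamini-Hochberg adjustment per comparison. The code was tested on simulated data. The members, 8 gene lists and motifs were chosen with earlier results of these data known. Named are all 10 hosts, up to 4 called genes per list with the largest change, adjacent or overlapping genes, of which 1 is not reported here, and the 5 genes of most similar profile. Promoters came from RefSeq on GRCh38.p14 and transcripts from GENCODE release 29. Alternatives were a pseudocount of 0.1 TPM, no filter, a filter at 5 TPM, a fit of the compared libraries alone, the letter as a block, leaving out each library, and 3 rescalings.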

Additional observations from a re-analysis of the deposited data

How the results depend on the processing

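Across 14 alternative settings the number of hosts called higher with MAL3-101 in RMS13 was 7 to 9, and 1 was lower in each. In RMS13-R over RMS13, both with MAL3-101, 7 to 9 were lower and 0 higher, and over RMS13 with DMSO 3 to 5 were higher and 3 to 5 lower. The letters A and B showed no pairing (correlations of same-letter deviations between groups -0.021, -0.020 and 0.026). With the letter as a replicate block the hosts called higher and lower were 9 and 1, 0 and 8, and 4 and 4, and all genes called were 5942, 8381 and 7492. Leaving out each library gave 3158 to 7708, 5971 to 10105 and 4955 to 8675 genes called in the 3 comparisons, against 6181, 8495 and 7662; in the first there were 3158 and 3353 without library A or B of RMS13 with MAL3-101, and in the third 4955 and 5004 without RMS13-R library A or B. Opposite signs arose for values that had not passed as reported, and MYC's -0.13 without DMSO library A had an adjusted p = 0.0481. Between the lines under MAL3-101, SNHG3 took 0.046 with median-ratio and 0.061 with upper-quartile scaling, SNHG6 took 0.0073 with upper-quartile scaling, and WDR74 took 0.069 and 0.084 with the median-ratio and the upper-quartile one. For RMS13-R over RMS13 with DMSO, SMG1 took 0.014 and 0.0049 with the same scalings, and MYCN 0.0019 with median-ratio scaling. Leaving out each library in that comparison gave -0.35 to 0.015 for SNHG1, -0.13 to 0.21 for MYC, and -0.011 to 0.17 for TRNAU1AP; for ZNFX1 with MAL3-101 in RMS13 it gave -0.023 to 0.010, with 0.0050 without DMSO library B, and for WDR74 -0.17 to 0.038. The cause of these changes was not tested. Each group has 2 libraries and the depth is unknown.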

Other observations

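Regulators upstream of translation were followed beside the hosts. A list of 7 genes held EIF2S1, which encodes the initiation factor eIF2 alpha itself, and the kinases and phosphatase subunits that act on it. Of the 7, 3 rose, 2 fell and 2 did not pass with MAL3-101 in RMS13, with a median log2 fold change of 0.14. Over all tested genes, 22.6% rose and 18.2% fell. PPP1R15A, the inducible phosphatase subunit that restores initiation, stood at 69.3 and 68.7 TPM in RMS13-R with MAL3-101, 272.0 and 251.8 TPM in RMS13 with MAL3-101, and 36.1 and 47.3 TPM in RMS13 with DMSO. It rose by 2.63 (SE 0.11, adjusted p = 1.38e-05 by limma) with MAL3-101 in RMS13, and RMS13-R differed from RMS13 with the drug by -1.91 (SE 0.11, adjusted p = 2.15e-05). EIF2AK3, the kinase PERK of the endoplasmic reticulum, rose by 1.81 (SE 0.10, adjusted p = 4.56e-05), and EIF2AK4, the amino acid sensing kinase GCN2, was 0.72 higher in RMS13-R than in RMS13 with the drug (SE 0.08, adjusted p = 2.21e-04). In that comparison 1 of the 7 was higher, 4 lower and 2 did not pass (median -0.23; 21.3% and 34.8% of all tested genes were higher and lower), and in RMS13-R against RMS13 with DMSO 3 were higher, 3 lower and 1 did not pass (median 0.21; 20.9% and 29.7%).

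MYC drives ribosome production, and the MYC network also holds antagonists of MYC. Of 9 genes of this network, 2 rose, 2 fell and 5 did not pass with MAL3-101 in RMS13 (median 0.14). The shares over all tested genes were 40.8% changed, 22.6% up and 18.2% down. MXD1, an antagonist of MYC, stood at 3.86 and 4.05 TPM in RMS13-R with MAL3-101, 19.1 and 19.3 TPM in RMS13 with MAL3-101 and 4.37 and 4.28 TPM in RMS13 with DMSO, and rose by 1.92 in RMS13 (SE 0.10, adjusted p = 3.30e-05). MYC averaged 62.7 ± 0.148 TPM in RMS13 with MAL3-101 and 35.7 ± 6.14 TPM with DMSO (SD, n = 2 each), and rose by 0.81 (SE 0.11, adjusted p = 0.00130). Its paralog MYCN, named after its values were seen, stood at 81.3 and 81.8 TPM in RMS13-R, 53.2 and 54.1 TPM in RMS13 with MAL3-101 and 88.0 and 83.8 TPM with DMSO; it fell by 0.67 with the drug in RMS13 (SE 0.05, adjusted p = 1.65e-04). With the drug in both lines, 3 were higher in RMS13-R, 4 lower and 2 did not pass (median -0.16). Among all tested genes, 21.3% were higher and 34.8% lower. MYC had -0.77 (SE 0.11, adjusted p = 7.63e-04) and MYCN 0.59 (SE 0.05, adjusted p = 8.98e-05). In RMS13-R against RMS13 with DMSO, 1 was higher, 1 lower and 7 did not pass (median 0.04), beside 20.9% higher and 29.7% lower among all tested genes.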
